A study of Mus musculus with 8 samples.

Results

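The nuclear genes for the mitochondrial respiratory chain were followed in mouse skin tumour cells from which the transcription factor Twist1, or Twist1 together with p53, had been deleted. Members were all genes whose only platform symbol starts with Nduf, Sdh, Uqcr, Cox4, Cox5, Cox6, Cox7 or Cox8 and that occur in both deposited value tables, which gave 71 of the 16671 genes measured in both. Of these, 60 encode subunits or subunit isoforms of complexes I to IV, and 11 are assembly factors that share the prefixes. The series holds 8 microarrays in 4 groups of 2, all from skin tumours induced with DMBA and TPA, a mutagen and a tumour promoter. Every mouse, controls included, received 5 doses of 2 mg tamoxifen. The Twist1 deletion group was K14CreER:Twist1fl/fl and its control Twist1fl/fl, while the Twist1/p53 deletion group was K14CreER:Twist1fl/fl:p53fl/fl and its control Twist1fl/fl:p53fl/fl. The Cre recombinase is driven by the keratin 14 promoter, which is active in basal keratinocytes, and the controls carry no Cre, so effects of Cre and of the deletion cannot be told apart. The mice were littermates of mixed background, and live tumour epithelial cells were sorted as Epcam+/Lin-/DAPI-. The labels number the samples without saying whether each is an animal or a tumour, so p-values measure only the spread between these samples, which may be technical.

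The respiratory chain passes electrons from NADH and succinate to oxygen and pumps protons across the inner mitochondrial membrane. Complex I oxidises NADH, complex II oxidises succinate, complex III passes the electrons on to cytochrome c, and complex IV reduces oxygen. Most subunits are encoded in the nucleus and have to be matched by subunits from mitochondrial DNA, and several complex IV subunits come in tissue-specific isoforms.

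Promoters are shown for 3 genes, chosen because the tests placed them at an end of their group. Ndufc2 had the highest and Ndufb10 the lowest moderated t of the complex I genes after Twist1/p53 deletion, and Sdhd had the lowest t of all members after Twist1 deletion. Each sequence is the 250 bases before the annotated start of the gene, read 5′ to 3′ on the gene's strand, from RefSeq on GRCm38.p6. Ndufc2 lies at chr7:97399753-97400002 (plus strand), Ndufb10 at chr17:24724424-24724673 (minus strand) and Sdhd at chr9:50603850-50604099 (minus strand). Capitals mark matches to the 6 motifs given next.
Ndufc2: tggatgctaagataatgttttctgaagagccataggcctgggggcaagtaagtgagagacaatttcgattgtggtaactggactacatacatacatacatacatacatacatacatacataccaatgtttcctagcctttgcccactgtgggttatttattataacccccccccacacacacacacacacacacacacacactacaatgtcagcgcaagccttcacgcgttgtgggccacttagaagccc
Ndufb10: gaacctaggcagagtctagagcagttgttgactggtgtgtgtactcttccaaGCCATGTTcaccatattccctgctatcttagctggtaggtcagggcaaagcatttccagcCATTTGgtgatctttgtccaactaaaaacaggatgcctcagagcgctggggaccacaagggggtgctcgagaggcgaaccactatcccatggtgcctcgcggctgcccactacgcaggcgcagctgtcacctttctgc
Sdhd: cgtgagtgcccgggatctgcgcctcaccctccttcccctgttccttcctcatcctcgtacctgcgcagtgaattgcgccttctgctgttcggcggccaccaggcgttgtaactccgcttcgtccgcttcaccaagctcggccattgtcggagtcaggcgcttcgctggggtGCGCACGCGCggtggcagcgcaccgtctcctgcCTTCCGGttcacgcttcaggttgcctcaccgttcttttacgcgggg

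The motifs were searched on both strands as NRF1 (GCGCA, then any base, then GCGC), ETS CCGGAAG, YY1 AANATGGC, ERR TCAAGGTCA, the hypoxia motif ACGTG and the Twist1 E-box CATNTG. NRF1, the ETS factor GABP, YY1 and ERR are known regulators of respiratory chain genes. In the Sdhd window an NRF1 match began 79 bases and an ETS match 46 bases before the start. The Ndufb10 window held a YY1 match at 198 bases and an E-box match at 138 bases before the start, and the Ndufc2 window held none of the 6. Of the 57 members with a promoter in the table, 12.3% held the NRF1 motif against 4.23% of all 27025 genes, 17.5% the ETS motif against 7.83%, and 12.3% the YY1 motif against 4.49%. No member held the ERR motif, which 0.422% of all genes held. The hypoxia motif was in 17.5% of members and 18.5% of all genes, and the E-box in 35.1% and 38.2%. These counts describe letters in the windows and say nothing about binding. The members without an entry are Cox4i1, Cox4i2, Cox6a2, Cox6c, Cox8c, Ndufa2, Ndufa4l2, Ndufaf6, Ndufb9, Ndufs1, Sdhc, Uqcrb, Uqcrc2 and Uqcrq.

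Values are deposited log2 signals, so a difference of 1 is a doubling. The tables come from different Affymetrix array types and were normalized apart, so levels are set side by side only within a table. The targeted gene, Twist1, read 5.20 and 7.18 in its controls against 3.81 and 3.90 after Twist1 deletion, a difference of -2.33 with a limma adjusted p of 0.51, not called. In the other table it fell from 6.15 and 6.04 to 4.82 and 5.01 (-1.19 ± 0.14, SE, limma adjusted p = 0.043). In both tables Xist was high in the controls and Eif2s3y, a Y-linked gene, in the deletion arrays (Xist -5.32 and -7.04, Eif2s3y 5.81 and 5.70), so sex and deletion cannot be told apart. The mean of 6 epithelial markers was 12.06 and 12.01 against 12.03 and 12.36 after Twist1 deletion. These markers did not move together, with 3 higher and 3 lower, from -0.39 (Krt5) to 0.76 (Epcam). The mean of 8 leukocyte markers in the same table was 5.12 and 5.30 against 5.29 and 5.22. In the Twist1/p53 table both means separated the groups, the epithelial one at 11.38 and 11.34 against 11.44 and 11.65 and the leukocyte one at 4.69 and 4.75 against 4.63 and 4.47. The leukocyte markers did not move together there, with 4 higher and 4 lower, from -0.68 (Cd3e) to 0.17 (Itgax). The mean of 5 melanocyte markers was 4.75 and 4.92 against 5.17 and 5.14 after Twist1 deletion. Of these, 4 lay above both controls, beside 18.1% of all genes. After Twist1/p53 deletion that mean was 4.68 and 4.72 against 4.91 and 4.50. The mean of 3 adipocyte markers was 5.56 and 5.48 against 5.32 and 6.27 after Twist1 deletion. In the other table it was 4.46 and 4.55 against 4.95 and 5.42, from -0.03 (Retn) to 2.06 (Lpl). The part of these markers in the results was not tested. In bulk samples, fewer cells of a type and less RNA per cell cannot be told apart.

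After Twist1 deletion most respiratory chain genes had a slightly lower mean signal, and no single gene passed the test. The mean was lower for 55 of 71 members and higher for 16, with a median difference of -0.10, where the median of all 15944 genes tested was -0.02 and 53% of them had a lower mean. Of the 68 members above the filter on dim probe sets, limma called 0 at an adjusted p under 0.05 (smallest adjusted p 0.57), beside 0.0314% of all genes, and 2 had an unadjusted p under 0.05, beside 8.73% of all genes. Deletion arrays lay below both controls without overlap for 17 members and above both for 6, where all genes gave 23.5% and 18.1%. The differences ran from -0.52 (Ndufaf1) to 0.40 (Cox4i2).

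The shift was not even across the arrays. Relative to the mean of the controls, the median member of the control arrays lay at -0.07 and 0.07, against -0.14 and -0.05 after deletion. At the median, the first control thus lay lower than the second deletion array. Without control 1 the median was -0.17 with 58 members lower, without control 2 it was -0.04 with 42 lower, without deletion array 1 it was -0.05 with 49 lower, and without deletion array 2 it was -0.14 with 54 lower. Measures of RNA quality and the spike-in controls moved with the group in this table. The 3′ minus 5′ signal of Gapdh was 0.04 and 0.03 without and 0.22 and 0.30 with the deletion, that of Actb was 0.63 and 0.63 against 0.95 and 0.78, and the mean of the poly-A spike-ins was 8.36 and 9.26 against 9.63 and 10.64. Their part in the result was not tested.

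After Twist1/p53 deletion the respiratory chain genes had no common direction, and a few stood out by size without passing the test. The mean was lower for 43 members and higher for 28, with a median of -0.03 beside -0.01 over all 14936 genes tested, of which 52.3% had a lower mean. Limma called 0 of the 70 members above the filter (smallest adjusted p 0.062), beside 1.63% of all genes. An unadjusted p under 0.05 was found for 14 members, beside 20.4% of all genes. Deletion arrays lay above both controls for 19 members and below both for 23, beside 24.4% and 28.7% of all genes. Only Ndufa4l2, Ndufaf1, Cox6b2 and Sdhaf1 differed by over 0.5 in either direction. Fibroblast markers moved with the group in this table, with 5 of 7 lower and a mean of 6.14 and 6.25 against 6.06 and 5.12. They did not move together: the proteoglycan Lum fell (-1.10 ± 0.11, limma adjusted p = 0.032), Col1a1 differed by -2.52 ± 0.58 (limma adjusted p = 0.12), and Dcn, another proteoglycan, by 1.85 ± 0.66 (limma adjusted p = 0.22). Their mean in the Twist1 table was 6.53 and 5.83 against 6.19 and 6.47. Their part in the result was not tested.

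This outcome depended on which arrays were fitted. Without deletion array 1, limma called 14 members (Cox8a, Ndufa2, Ndufa3, Ndufa4l2, Ndufa8, Ndufb10, Ndufc2, Ndufs4, Ndufs7, Ndufv1, Sdhaf1, Sdhaf4, Sdhd and Uqcrc1), beside 24.6% of all genes. Without deletion array 2 it called 12 (Cox6b2, Cox8a, Ndufa10, Ndufa3, Ndufa4l2, Ndufa9, Ndufaf3, Ndufb10, Ndufb7, Ndufc2, Ndufs1 and Ndufv1), beside 21.7% of all genes. In those fits the spread came from the controls alone, and the lone deletion array was assumed to vary like them. Without either control, limma called no gene at all, and 3 (without control 1) or 2 (without control 2) members had an unadjusted p under 0.05. The SD over members of the difference between the arrays of a group was 0.09 for the controls and 0.19 for the deletion arrays of this table. In the Twist1 table it was 0.23 and 0.28.

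**Figure D1:**
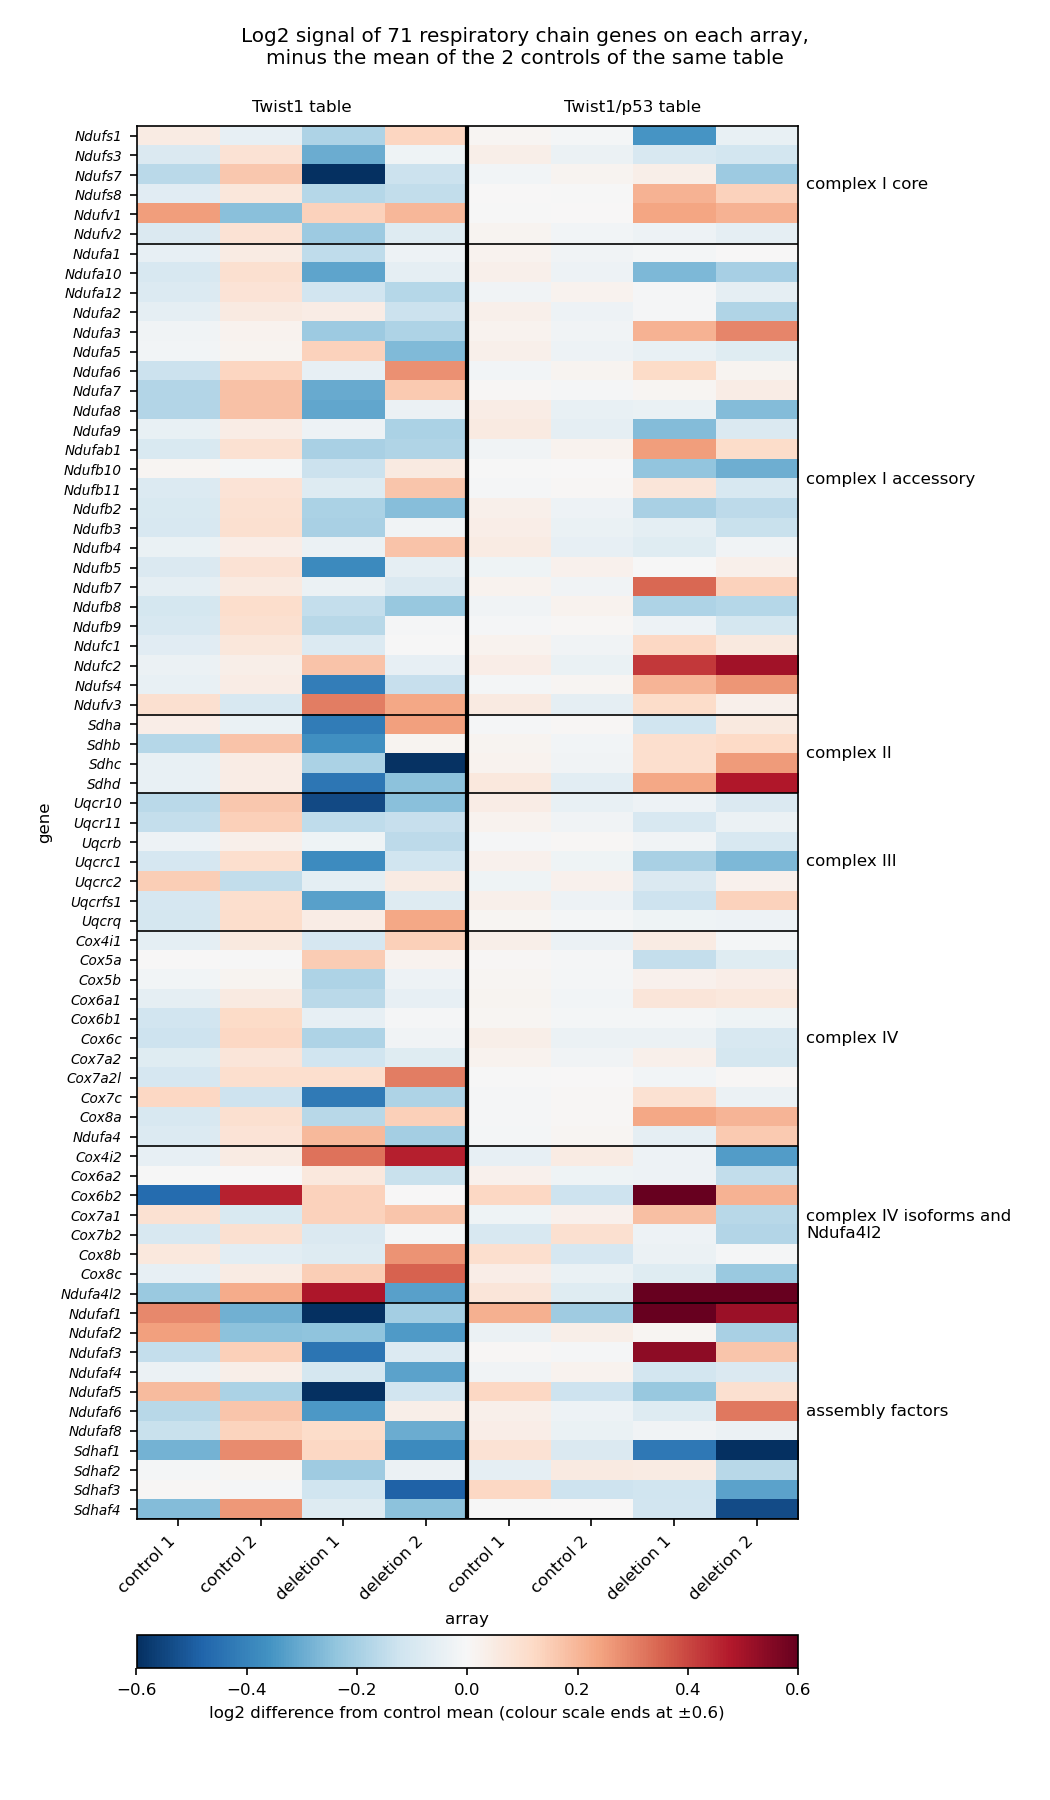
Log2 signal of each of the 71 genes on each of the 8 arrays, minus the mean of the controls of the same table; blue is lower, red is higher, and the colour scale ends at 0.6 in either direction. The Twist1 deletion arrays hold more blue than red. The Twist1/p53 deletion arrays hold both, with Ndufa4l2 among the genes at the red end of the scale.

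Complex I core subunits carry the flavin, iron-sulphur clusters and quinone site of the enzyme. After Twist1 deletion 5 of the 6 measured had a lower mean (median -0.15), and after Twist1/p53 deletion 4 of 6 (median -0.07). Ndufs7, which holds the last iron-sulphur cluster before the quinone site, read 10.61 and 10.94 in the controls of the Twist1 table against 9.96 and 10.64 after deletion, a difference of -0.47 ± 0.26 (SE, n = 2 arrays per group, limma adjusted p = 0.65). The groups overlapped there, with the low value in deletion array 1. The other Ndufs7 probe set of that table differed by -0.26, with both deletion arrays below both controls. Ndufv1, the flavin-binding subunit, read 11.46 and 11.47 in the Twist1/p53 controls and 11.70 and 11.68 after deletion. Both deletion arrays lay above both controls, by 0.22 ± 0.05 (limma adjusted p = 0.13). A second Ndufv1 probe set in that table differed by -0.10, and the 3 Ndufv1 probe sets of the Twist1 table differed by -0.10, 0.17 and 0.48, so this gene has no settled direction. Ndufs3, a core subunit of the peripheral arm, had the lowest t of the core group after Twist1/p53 deletion, at -0.10 ± 0.08.

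Complex I accessory subunits surround the core and are needed for assembly and stability. Of 24, the mean was lower for 19 after Twist1 deletion (median -0.09) and for 14 after Twist1/p53 deletion (median -0.02). Ndufc2, a membrane-arm subunit, read 10.42 and 10.35 in the Twist1/p53 controls and 10.81 and 10.89 after deletion. Both deletion arrays lay above both controls, at 0.46 ± 0.08 or 1.38-fold, with a limma adjusted p of 0.079. Ndufb10, another membrane-arm subunit, lay on the other side, with 11.09 and 11.09 in the controls and 10.85 and 10.79 after deletion (-0.26 ± 0.07, limma adjusted p = 0.14). Its E-box and YY1 matches and the lack of matches for Ndufc2 are in the sequences given above. The part of such matches in the differences was not tested.

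The same genes were close to their controls after Twist1 deletion. Ndufc2 read 11.89 and 11.96 against 12.10 and 11.87 (0.06 ± 0.12), on another probe set than in the Twist1/p53 table, and its other 3 Twist1 probe sets differed by -0.11, 0.09 and -0.04. Ndufb10 read 10.67 and 10.65 against 10.53 and 10.71 (-0.04 ± 0.13). Neither gene separated the groups. In that table the ends of complex I were Ndufv3, a small peripheral subunit, at 10.56 and 10.37 against 10.78 and 10.70 (0.27 ± 0.13, limma adjusted p = 0.62), and Ndufa3 at 11.51 and 11.56 against 11.31 and 11.35 (-0.20 ± 0.11, limma adjusted p = 0.64). Both separated the groups without passing the test.

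Other accessory subunits split after Twist1/p53 deletion. Ndufa3 read 11.22 and 11.18 in the controls and 11.41 and 11.50 after deletion (0.25 ± 0.07, limma adjusted p = 0.14). Ndufs4, whose loss causes Leigh syndrome, read 10.49 and 10.51 against 10.71 and 10.77 (0.24 ± 0.07, limma adjusted p = 0.19). On the low side, Ndufa10 read 11.20 and 11.15 against 10.91 and 10.97 (-0.24 ± 0.07, limma adjusted p = 0.17). All of these separated the groups, and none passed the test. Ndufb2 and Ndufb8 lay below both controls in both tables, with -0.22 and -0.18 after Twist1 deletion and -0.18 and -0.18 after Twist1/p53 deletion. The X-linked members, Ndufa1 and Ndufb11, had small differences, with -0.09 ± 0.11 and 0.05 ± 0.14 in the Twist1 table and -0.01 ± 0.05 and -0.01 ± 0.08 in the other.

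**Figure D2:**
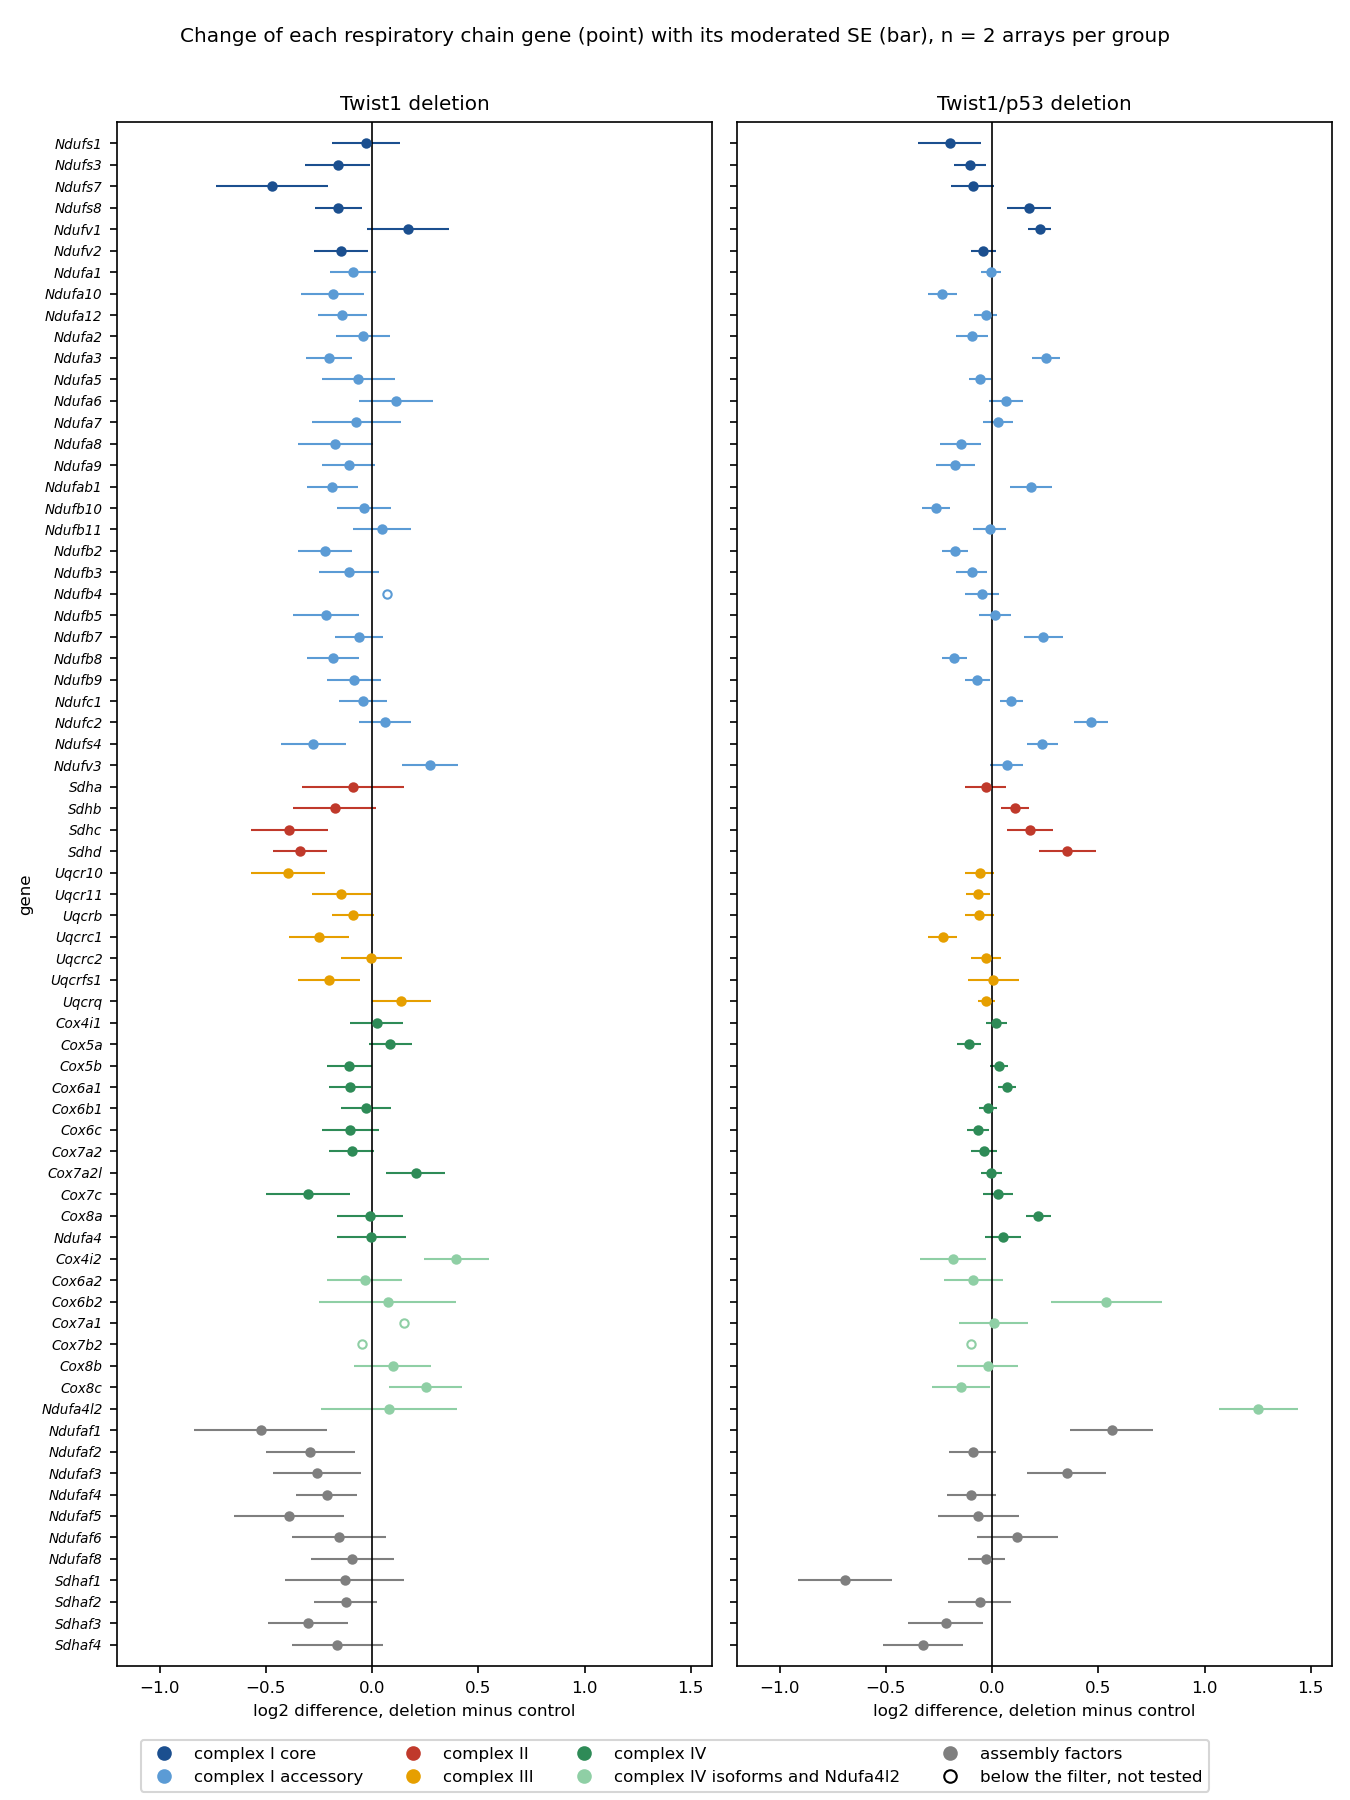
Log2 difference, deletion minus control, of each gene in each comparison, with the moderated SE as a bar, coloured by role; open points were below the filter and not tested. Points lie mostly left of 0 after Twist1 deletion, with all 11 assembly factors there, and on both sides after Twist1/p53 deletion, where Ndufa4l2 lies farthest right at 1.25 and Sdhaf1 farthest left at -0.69.

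Complex II, succinate dehydrogenase, is encoded by 4 nuclear genes and also works in the citric acid cycle. All 4 had a lower mean after Twist1 deletion (median -0.26), and 3 of 4 had a higher mean after Twist1/p53 deletion (median 0.14). Sdhd, a membrane anchor, read 11.11 and 11.20 in the controls of the Twist1 table against 10.72 and 10.91 after deletion (-0.34 ± 0.13, limma adjusted p = 0.57). In the other table it read 9.32 and 9.19 against 9.48 and 9.73 (0.35 ± 0.13, limma adjusted p = 0.24). The groups were apart in both tables and in opposite directions, but the probe sets differ, and the Twist1 probe set that matches the one used in the Twist1/p53 table differed by only -0.02.

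Sdhc, the other anchor, was read by the same probe set in both tables. It measured 9.75 and 9.84 against 9.60 and 9.20 after Twist1 deletion (-0.39 ± 0.18, limma adjusted p = 0.61) and 9.51 and 9.46 against 9.58 and 9.74 after Twist1/p53 deletion (0.18 ± 0.11, limma adjusted p = 0.43). Deletion arrays lay below both controls in the first and above both in the second. The iron-sulphur subunit Sdhb differed by -0.18 ± 0.20 and 0.11 ± 0.07. The flavoprotein subunit Sdha differed by -0.09 ± 0.24 and -0.03 ± 0.10, with the Twist1 deletion arrays far apart at 9.84 and 10.51. A second bright Sdha probe set lay below both controls in both tables, at -0.34 after Twist1 deletion and -0.30 after Twist1/p53 deletion.

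Complex III, the cytochrome bc1 complex, had a lower mean for 6 of 7 genes in both comparisons, with medians of -0.15 and -0.06. Uqcr10, a small subunit, had the lowest t after Twist1 deletion, with 11.03 and 11.35 in the controls and 10.65 and 10.94 after deletion (-0.40 ± 0.17, limma adjusted p = 0.59). Other Uqcr10 probe sets of that table had overlapping groups, with arrays of the same group far apart. They read 8.95 and 5.61 against 4.79 and 7.86 (-0.96), and 9.99 and 8.78 against 8.43 and 9.32 (-0.51). Uqcrc1, a core protein, had the lowest t after Twist1/p53 deletion, with 11.21 and 11.15 against 10.98 and 10.91 (-0.23 ± 0.07, limma adjusted p = 0.17). Uqcrc1 was also below both controls in the Twist1 table, at 11.92 and 12.12 against 11.65 and 11.90 (-0.25 ± 0.14). The highest t belonged to Uqcrq after Twist1 deletion (0.14 ± 0.14) and to the Rieske protein Uqcrfs1 after Twist1/p53 deletion (0.01 ± 0.12), and both overlapped with their controls.

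Complex IV, cytochrome c oxidase, had medians near 0 in both comparisons for its broadly expressed subunits. Of 11 genes, 8 had a lower mean after Twist1 deletion (median -0.03) and 6 a higher mean after Twist1/p53 deletion (median 0.02). Cox4i1, the common isoform of subunit IV, read 12.49 and 12.61 against 12.45 and 12.69 in the Twist1 table and 12.37 and 12.30 against 12.38 and 12.32 in the other. Its groups overlapped in both (0.02 ± 0.12 and 0.02 ± 0.05). Cox8a, the common isoform of subunit VIII, was the exception in the Twist1/p53 table, at 11.18 and 11.19 against 11.42 and 11.39 (0.22 ± 0.06, limma adjusted p = 0.15), and Cox5a had the lowest t there (-0.11 ± 0.06). After Twist1 deletion the ends were Cox7a2l, a supercomplex factor, at 0.20 ± 0.14 and Cox7c at -0.30 ± 0.20. Cox7c was read there by a dim probe set at 6.44 to 6.99, while the Twist1/p53 table has another at 11.19 to 11.32 that differed by 0.03 ± 0.07.

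Ndufa4l2, a paralogue of the complex IV protein Ndufa4 and known to be induced by hypoxia, had the largest difference of any member in either table. It read 9.11 and 8.97 in the Twist1/p53 controls and 10.53 and 10.06 after deletion, a difference of 1.25 ± 0.18 or 2.38-fold (limma adjusted p = 0.062, just above the threshold of 0.05). After Twist1 deletion it read 8.43 and 8.87 against 9.14 and 8.33, and the groups overlapped (0.08 ± 0.32, limma adjusted p = 0.96). Its broadly expressed partner Ndufa4 overlapped with its controls in both tables, at 12.50 and 12.67 against 12.78 and 12.38 (SE of the difference 0.16) and at 11.75 and 11.77 against 11.71 and 11.92 (0.05 ± 0.08).

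The tissue isoforms of complex IV were mostly dim. The Twist1/p53 arrays carry 23 nonspecific control probe sets, whose median was 3.45 to 3.66 and whose highest value was 7.29 to 8.07. Of the members, 11 lay on every array of that table below the highest of these, namely Cox4i2, Cox6a2, Cox6b2, Cox7a1, Cox7b2, Cox8b, Cox8c, Ndufaf1, Ndufaf3, Ndufaf6 and Sdhaf3. The median of all probe sets on these arrays, 4.81 to 4.82, also lay below that highest value. Cox4i2, the oxygen-responsive isoform of subunit IV, had the highest t of all members after Twist1 deletion, with 4.85 and 4.95 against 5.23 and 5.36 (0.40 ± 0.15, limma adjusted p = 0.57), and read 5.25 and 5.35 against 5.27 and 4.96 in the other table (-0.18 ± 0.16). Its groups separated only in the first. Cox6b2, a testis isoform, read 5.39 and 5.14 against 6.13 and 5.47 after Twist1/p53 deletion (0.54 ± 0.26, limma adjusted p = 0.34) and overlapped in the Twist1 table (0.07 ± 0.32). Its common partner Cox6b1 differed by -0.03 ± 0.12 and -0.02 ± 0.04. The muscle isoforms Cox6a2 and Cox8b differed by -0.03 ± 0.18 and 0.10 ± 0.18 after Twist1 deletion, and by -0.09 ± 0.14 and -0.02 ± 0.14 after Twist1/p53 deletion.

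Cox7a1, another muscle isoform, was under the filter in the Twist1 table and differed by 0.01 ± 0.16 in the other. The common partners Cox6a1 and Cox7a2 differed by -0.11 ± 0.10 and -0.10 ± 0.10 after Twist1 deletion and by 0.07 ± 0.04 and -0.04 ± 0.06 after Twist1/p53 deletion. The testis isoform Cox8c differed by 0.25 ± 0.17 and -0.15 ± 0.14, and Cox7b2 was under the filter in both tables. The mean of 11 skeletal muscle markers was 5.05 to 5.09 in the Twist1 table and 4.68 to 4.79 in the Twist1/p53 table, and that of 6 male germ cell markers 4.75 to 5.02 and 4.33 to 4.43. The mean of 4 brown adipocyte markers was 5.17 and 5.65 in the controls against 5.37 and 6.92 after Twist1 deletion, and 5.19 and 4.92 against 5.85 and 6.10 after Twist1/p53 deletion. In this list 3 of 4 genes had a higher mean in each comparison, with Cidea at 1.93 ± 0.77 after Twist1 deletion and Dio2 at 1.74 ± 0.29 after Twist1/p53 deletion, and none was called. Ucp1, which defines brown fat, differed by 0.19 ± 0.15 and -0.03 ± 0.11, and the part of these markers in the isoform values was not tested.

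**Figure D3:**
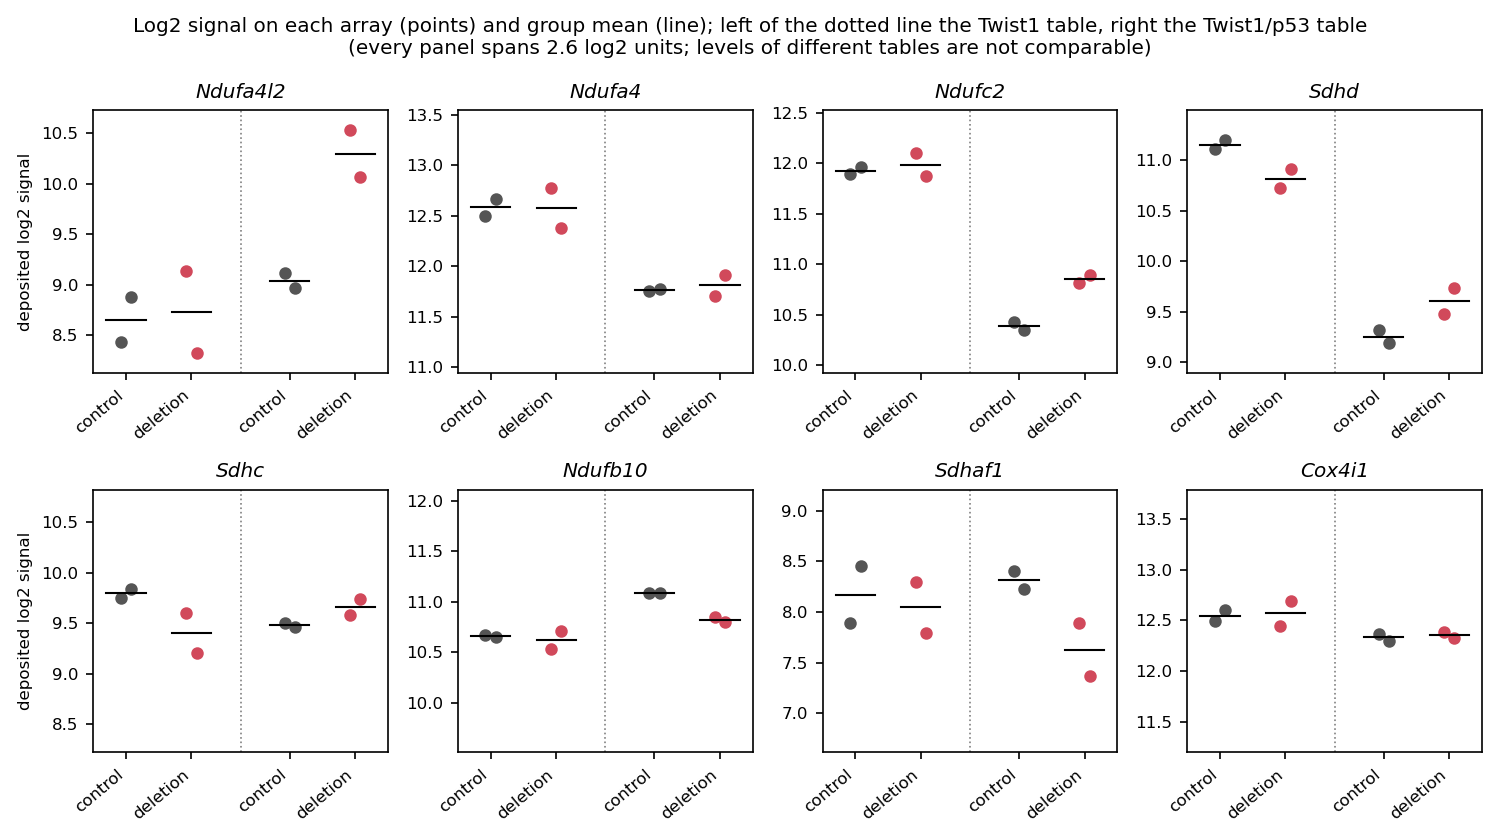
Deposited log2 signal of 8 genes on each array (points) with the group mean (line), the Twist1 table left of the dotted line and the Twist1/p53 table right of it; every panel spans 2.6 log2 units. Ndufa4l2 separates the Twist1/p53 groups most, Sdhc and Sdhd lie below their controls after Twist1 deletion and above them after Twist1/p53 deletion, and Cox4i1 overlaps in both.

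The assembly factors help to build complexes I and II without staying in them. All 11 had a lower mean after Twist1 deletion (median -0.21), and 8 of 11 after Twist1/p53 deletion (median -0.07). Deletion arrays lay below both controls for 3 of the 11 in the first comparison (Ndufaf4, Sdhaf2 and Sdhaf3), beside 23.5% of all genes, and the smallest adjusted p there was 0.67. Ndufaf1, a complex I chaperone, read 7.77 and 7.20 against 6.64 and 7.29 after Twist1 deletion (-0.52 ± 0.31, limma adjusted p = 0.67). It read 5.94 and 5.52 against 6.35 and 6.24 after Twist1/p53 deletion (0.56 ± 0.20, limma adjusted p = 0.22). Only the second pair of groups separated, at levels within the range of the nonspecific controls. Sdhaf1, needed for the iron-sulphur clusters of Sdhb, read 8.41 and 8.23 against 7.89 and 7.37 after Twist1/p53 deletion (-0.69 ± 0.22 or 1.61-fold lower, limma adjusted p = 0.19) and overlapped after Twist1 deletion (-0.13 ± 0.28). In the Twist1/p53 table its deletion values lay below the highest nonspecific control of their arrays (8.07 and 7.90). Its control values lay above theirs (7.29 and 7.56).

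The changes of the deletions were then set against each other in a fit over all 8 arrays, as the Twist1/p53 difference minus the Twist1 difference on matched probe sets. Of 67 members tested, 46 lay above 0 (median 0.06), beside 51.7% of all 13622 genes (median 0.01). Limma called 0 members (smallest adjusted p 0.25), beside 0.169% of all genes, and 8 had an unadjusted p under 0.05, beside 10.2% of all genes. Those with the largest distances were Ndufa4l2 (1.17 ± 0.42, limma adjusted p = 0.42), Ndufaf1 (1.09 ± 0.41, limma adjusted p = 0.45), Ndufc2 (0.58 ± 0.14, limma adjusted p = 0.25), Cox4i2 (-0.58 ± 0.21, limma adjusted p = 0.43) and Sdhc (0.57 ± 0.22, limma adjusted p = 0.46). The other members of the 8 were Ndufs4 (0.51 ± 0.17), Ndufa3 (0.46 ± 0.11) and Ndufa12 (0.32 ± 0.11), each with a limma adjusted p of 0.26 to 0.40. On the matched probe sets the Twist1 difference was -0.11 for Ndufc2 and -0.35 for Ndufa12, whose other bright Twist1 probe sets differed by -0.14 and 0.37. Complex II lay above 0 for 4 of 4 genes (median 0.33). Array type and deletion cannot be told apart in this difference, since each deletion was run on 1 array type.

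Side by side, 35 members had a lower mean in both comparisons, 8 a higher mean in both, 20 were lower after Twist1 and higher after Twist1/p53 deletion, and 8 the reverse. Small differences dominated, with 50 members under 0.25 in size in both. Over the 56 members read by the same probe set, Pearson's r of the differences was -0.0039, as a description across genes that share arrays. Ndufaf4, Ndufb2, Ndufb8 and Uqcrc1 lay below both controls in both tables, 4 of 71 members beside 10.4% of all genes tested in both. No member lay above both controls in both, beside 6.12% of all genes.

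**Figure D4:**
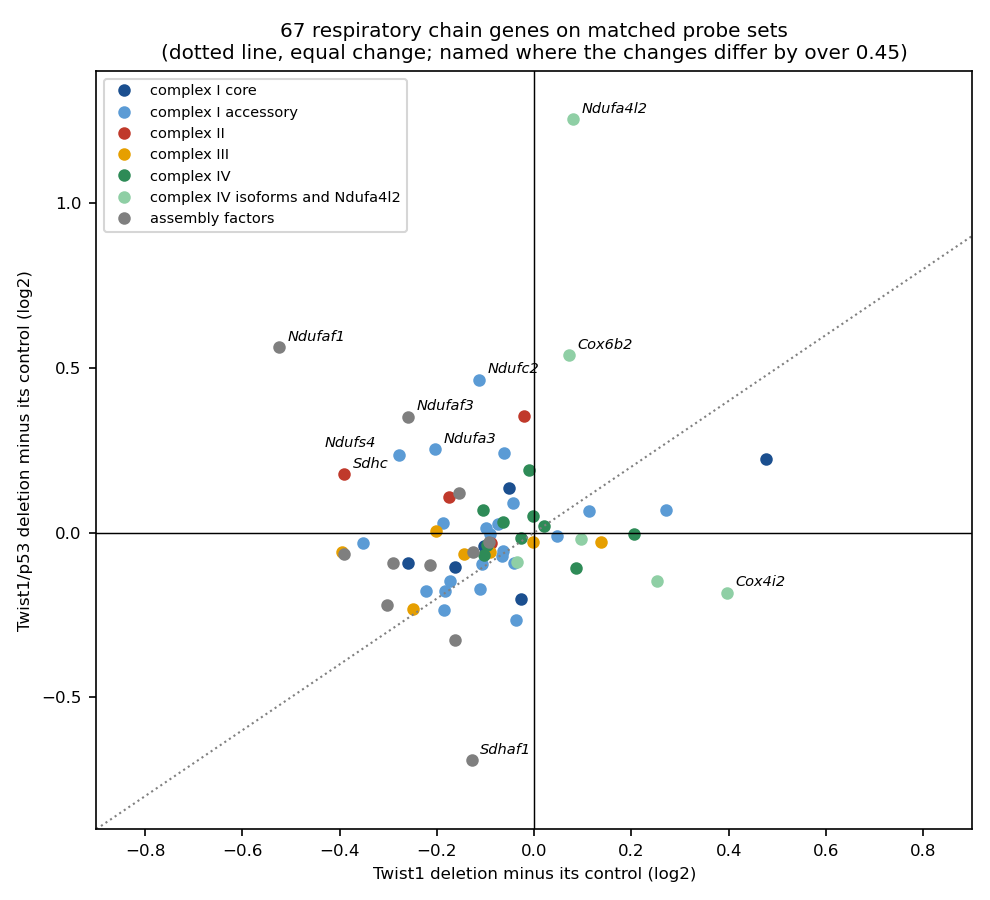
Twist1/p53 difference against Twist1 difference (log2) for the 67 genes tested on matched probe sets, coloured by role, with names where the differences are over 0.45 apart. Most genes crowd near 0, and Ndufa4l2, Ndufaf1, Ndufc2 and Sdhc lie above the dotted line of equal change.

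Neighbouring pathways gave a frame for these values. ATP synthase, which uses the proton gradient, had a lower mean for 16 of 18 subunits after Twist1 deletion (median -0.16) and for 9 of 18 after Twist1/p53 deletion (median 0.01), with Atp5g1 (-0.30) and Atp5h (0.15) at the ends by moderated t after Twist1 deletion and Atp5c1 (-0.20) and Atp5e (0.32) after Twist1/p53 deletion. Mitochondrial ribosome proteins, which make the subunits encoded in mitochondrial DNA, were lower for 61 of 71 (median -0.17) and 42 of 71 (median -0.05), with ends at Mrps10 (-0.90) and Mrps6 (0.26) after Twist1 deletion and at Mrps23 (-0.66) and Mrpl47 (0.78, on a dim probe set) after Twist1/p53 deletion. Cytosolic ribosome proteins were higher for 31 of 38 after Twist1 deletion (median 0.04) and lower for 23 of 38 after Twist1/p53 deletion (median -0.01), with ends at Rpl11 (-0.19) and Rpl27a (0.82) and at Rps2 (-0.13) and Rps14 (0.08). None of the genes in these 3 lists passed the test. After Twist1 deletion, deletion arrays lay below both controls for 41 of 71 mitochondrial ribosome, 11 of 18 ATP synthase and 2 of 38 cytosolic ribosome genes. The respiratory chain genes gave 17 of 71 there, and all genes 23.5%. After Twist1/p53 deletion these counts were 28, 4 and 13, beside 23 of 71 and 28.7%. The citric acid cycle enzymes were lower for 9 and 11 of 15 (medians -0.07 and -0.10), with ends at Idh2 (-0.35) and Suclg2 (0.26) after Twist1 deletion and at Fh1 (-0.30) and Idh3b (0.10) after Twist1/p53 deletion, also with none called.

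Other proteins of the chain were measured under other names. The 10 electron carriers and chain proteins were lower for 5 in each comparison, with ends at Dhodh (-0.47 ± 0.17) and Sqor (0.88 ± 0.64) after Twist1 deletion and at Prodh (-0.75 ± 0.15) and Higd1a (0.14 ± 0.07) after Twist1/p53 deletion. Dhodh, Sqor and Prodh pass electrons to the quinone pool, and cytochrome c (Cycs) differed by 0.02 ± 0.13 and 0.01 ± 0.07. The 30 assembly factors under other names were lower for 20 (median -0.20) and 19 (median -0.11). Timmdc1 had the highest t in both (0.62 ± 0.31 and 0.39 ± 0.18), and Tmem186 the lowest after Twist1 deletion (-0.66 ± 0.18). Acad9, a complex I assembly factor, read 9.64 and 9.49 against 8.48 and 8.68 after Twist1/p53 deletion (-0.98 ± 0.13, limma adjusted p = 0.055) and 9.63 and 9.61 against 9.31 and 10.09 after Twist1 deletion. It separated the groups only in the Twist1/p53 table, and no gene of these lists was called. Regulators of mitochondrial biogenesis were lower for 13 and 10 of 16 (medians -0.11 and -0.09). Among them Gabpa, which binds the ETS motif, differed by -0.37 ± 0.17 and 0.44 ± 0.21, Esrrg by 0.51 ± 0.17 after Twist1 deletion, and Perm1 by -0.75 ± 0.11 after Twist1/p53 deletion (limma adjusted p = 0.061).

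Hypoxia response genes had a higher mean for 12 of 16 after Twist1 deletion (median 0.30, none called) and for 14 of 16 after Twist1/p53 deletion (median 0.35, 2 called, beside 1.07% of all genes called higher). Bnip3, a mitophagy receptor, rose from 9.24 and 9.01 to 10.74 and 10.78 after Twist1/p53 deletion (1.64 ± 0.12, limma adjusted p = 0.017), and Egln3, an oxygen-sensing hydroxylase, rose from 9.65 and 9.59 to 10.54 and 10.57 (0.94 ± 0.09, limma adjusted p = 0.026). After Twist1 deletion they differed by 0.61 ± 0.12 and 0.53 ± 0.16 (limma adjusted p = 0.43 and 0.53). The ends by moderated t were Car9, a carbonic anhydrase, at 1.47 ± 0.20 and Ankrd37 at -0.46 ± 0.21 after Twist1 deletion, and Bnip3 and Adm (-0.46 ± 0.50) after Twist1/p53 deletion. Car9 had the largest difference of the list there, at 2.24 ± 0.40 (limma adjusted p = 0.080). These values stand beside that of Ndufa4l2, and their part in it was not tested. Of 7 genes linked to p53, not all of which encode mitochondrial proteins, 5 were higher after Twist1 deletion (median 0.33, ends Rrm2b at -0.13 and Pmaip1 at 0.54). After Twist1/p53 deletion 5 were lower (median -0.06, highest t Pank1 at 0.34). Cpt1c, a p53-linked carnitine palmitoyltransferase, read 7.93 and 7.35 against 5.89 and 5.71 after Twist1/p53 deletion (-1.84 ± 0.24, limma adjusted p = 0.050, not called). After Twist1 deletion it lay on the other side, at 6.23 and 7.43 against 8.98 and 7.46 (1.39 ± 0.62, limma adjusted p = 0.60).

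**Figure D5:**
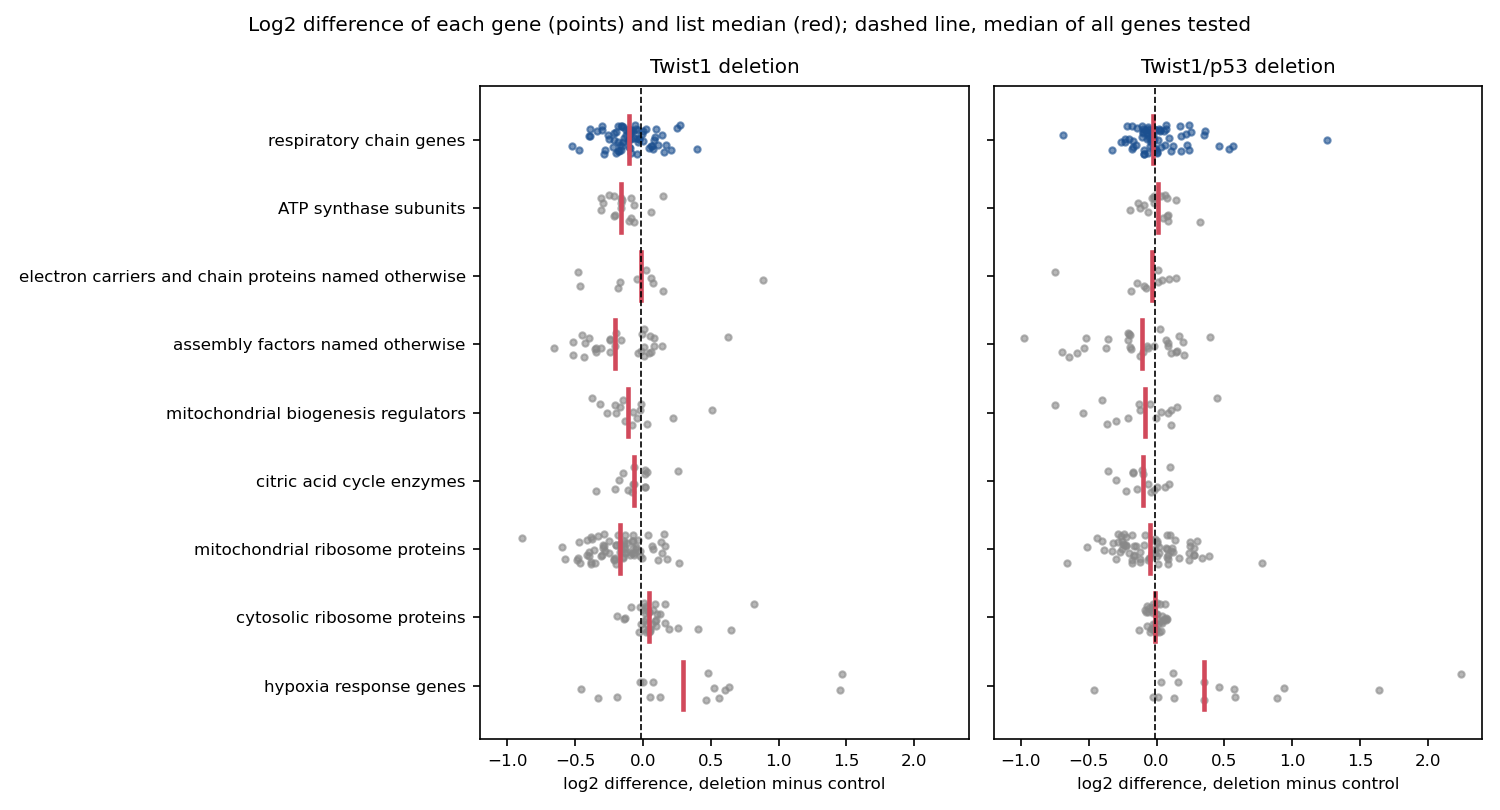
Log2 difference of each gene (points) with the list median (red line) for the respiratory chain genes and neighbouring lists in both comparisons; the dashed line is the median of all genes tested. After Twist1 deletion the medians of the respiratory chain (-0.10), ATP synthase (-0.16) and mitochondrial ribosome (-0.17) lie left of the dashed line, and in both comparisons the hypoxia list lies right of it.

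Probe sets limit what can be said of single genes. The 71 members had 146 probe sets in the Twist1 table and 123 in the other, and among genes with several, 12 of 41 and 13 of 33 had probe sets that differed in sign. Ndufb4 shows the extreme case. Its probe set with 1 symbol in the Twist1 table was dim, at 3.83 to 4.05 and under the filter, while probe sets shared with Ndufb4b and Ndufb4c read 10.35 to 11.12 and differed by -0.29 and -0.35. In the Twist1/p53 table Ndufb4 read 10.74 and 10.64 against 10.62 and 10.67. A further 14 symbols with these prefixes were not the only symbol of a probe set in each table and were not analysed here, among them Ndufa13, Ndufb6, Ndufs5 and Uqcrh.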

How the data were processed

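Total RNA of sorted tumour epithelial cells was measured on Affymetrix mouse genome arrays. The authors deposited 2 value tables of 4 arrays each, with 45101 and 45083 probe sets. The authors' deposited values behave as log2 signals (no label states the scale), with array medians nearly equal in each table. Which software summarised them is not given in the sources. Gene symbols came from the platform annotation, and only probe sets with 1 symbol entered (34945 and 28864). All 71 members matched the RefSeq gene table of GRCm38.p6 by Entrez number. The probe set with the highest mean in a table stood for its gene, and genes under the 20th percentile of all probe sets (4.11 and 3.74) were not tested, which removed Cox7a1, Cox7b2 and Ndufb4 in the Twist1 table and Cox7b2 in the other.

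Deletion arrays were tested against their controls in R 4.3.3 with limma 3.58.1 (lmFit, eBayes with an intensity trend), and an adjusted p (Benjamini-Hochberg over all genes tested) under 0.05 was called. The difference between deletions was fitted over all 8 arrays on probe sets matched by identifier, chosen by mean rank over both tables, so a gene's change there can differ from that in its own comparison. Errors are moderated SE, and the 2 arrays per group limit the precision. The procedure was tested on simulated data. Promoters were searched with Python 3.11.15. Values are given for members called and for those with the highest and lowest moderated t of each complex and of the assembly factors. They are also given for the ends of the complex I core and of the broadly expressed complex IV subunits. Isoforms with their partners and X-linked members have values too. Each pathway list has them for its ends by moderated t and its genes called, in part without SE or p. Ndufa10, Ndufa12, Ndufaf4, Ndufb2, Ndufb8, Ndufs4, Sdhaf2, Sdhaf3, Sdhb, Sdhc and Cycs, and the marker genes other than the checks of sex, were named after their values were seen. The members and lists were chosen with earlier results of these data known.

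Other settings tried were median centring, quantile normalization, a filter at the 50th percentile or none, averaged probe sets, a fit with no intensity trend, a robust fit, a replicate block, each gene's own probe set for the difference, and leaving out each array.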

Additional observations from a re-analysis of the deposited data

How the results depend on the processing

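With all arrays, the members called stayed at 0 in the Twist1, the Twist1/p53 and the difference comparison under every other processing tried (quantile normalization, median centring, both filters, the mean over probe sets, no intensity trend, the robust fit and, for the difference, each gene's own probe set). The smallest adjusted p of a member in limma's fit ranged over these from 0.50 to 0.63, from 0.056 to 0.076 and from 0.21 to 0.32. Leaving out 1 array at a time gave 0 to 14 called members after Twist1/p53 deletion, with 14 without deletion replicate 1 and 12 without deletion replicate 2, and 0 in each case for the other comparisons. The median of the members ran from -0.17 to -0.04 after Twist1 deletion and from -0.03 to -0.01 after Twist1/p53 deletion when 1 array was left out. Quantile normalization left 51 members lower after Twist1 deletion.

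With the replicate number as a block, limma called 0 members in each comparison, with smallest adjusted p-values of 0.57, 0.10 and 0.46, and all genes called went from 5 to 1, from 244 to 4 and from 23 to 6. The deviations of samples with the same number correlated at 0.03 and -0.02 in the Twist1 and Twist1/p53 tables. With 2 arrays per group this cannot show whether samples with the same number belong together. The labels give only the number, so the pairing is not used. With 2 arrays per group, a missing call does not show that a gene is unchanged. Among the members, 11 lay below the highest nonspecific control probe set on every array of the Twist1/p53 table. The median of all probe sets of that table, 4.81 to 4.82, lay below it too. Scanner files were not used here.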
